A study of Homo sapiens with 2 samples.

Results

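Peaks that lay between protein-coding genes are described here, from chromatin immunoprecipitation with sequencing (ChIP-seq) of tagged ERG. F36P, the line used, is an established human erythroleukaemia line. It carried the retroviral vector MSCV-PIG, empty (Vector) or expressing AM-ERG, which is ERG joined to an AM tag. Both kinds were kept under puromycin at 1 µg/ml for 4 days, and an antibody to the tag was used for the precipitation. Cells of both kinds were fixed with 1% formaldehyde, and chromatin was digested with MNase for 20 min. The labels list 1 library of each kind, and the data were 1 list of 1645 peaks. ERG was therefore supplied from a vector, in 1 cell line, on top of whatever factors those cells make themselves. The peak names do not say which library the list came from, so AM-ERG cells could not be set against Vector cells. No value has a replicate error, and read depth per library was unknown.

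Members were found by position alone. A peak counted when its summit was on chromosomes 1 to 22 or X, outside every protein-coding gene in RefSeq (GRCh38), over 1 kb from the ends of all of them, and outside 7 intervals of multicopy sequence. This gave 211 of 1564 peaks on those chromosomes, or 13.5% (95% Wilson interval 11.9 to 15.3%, counting error only). Of the 211, 65 were within 10 kb of a protein-coding gene and 146 (69.2%) were farther away.

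ERG belongs to the ETS family of transcription factors, whose DNA-binding domain recognises a GGAA core. In blood stem cells and endothelium it works with partner factors both at promoters and at enhancers, which are control sequences that can act over long distances. Intergenic ChIP-seq peaks can mark enhancers, promoters of noncoding RNA genes, or repeated sequence where reads pile up.

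Sequence was available for promoter windows of annotated genes, each running from 250 bp before to 50 bp after a gene's start (RefSeq, GRCh38.p14). The windows below lie under members among the 12 far and 8 near ones of highest fold enrichment, and are shown because they carry the ETS cores counted further on. The other members of that set have no window printed, so these 5 stand for peaks at lncRNA starts and not for intergenic peaks in general. Each is written 5′ to 3′ on the strand of its noncoding gene. Capitals mark the ETS cores searched for, CGGAAG and AGGAAG or their reverse complements.
LOC124904731, chr19:47244146-47244445, minus strand: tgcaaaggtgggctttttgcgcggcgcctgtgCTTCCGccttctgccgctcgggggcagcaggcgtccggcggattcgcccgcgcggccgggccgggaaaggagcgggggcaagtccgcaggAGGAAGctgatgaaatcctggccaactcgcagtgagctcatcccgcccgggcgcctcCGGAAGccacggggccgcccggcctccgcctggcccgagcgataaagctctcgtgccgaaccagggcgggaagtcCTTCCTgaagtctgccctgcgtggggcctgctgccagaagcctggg
LINC00667, chr18:5237850-5238149, plus strand: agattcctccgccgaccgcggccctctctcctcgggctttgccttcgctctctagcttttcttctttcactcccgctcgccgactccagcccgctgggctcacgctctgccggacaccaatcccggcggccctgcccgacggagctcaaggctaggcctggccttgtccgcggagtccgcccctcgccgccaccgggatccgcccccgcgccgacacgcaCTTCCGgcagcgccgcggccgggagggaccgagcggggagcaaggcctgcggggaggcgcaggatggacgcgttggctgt
MIR142HG, chr17:58332471-58332770, minus strand: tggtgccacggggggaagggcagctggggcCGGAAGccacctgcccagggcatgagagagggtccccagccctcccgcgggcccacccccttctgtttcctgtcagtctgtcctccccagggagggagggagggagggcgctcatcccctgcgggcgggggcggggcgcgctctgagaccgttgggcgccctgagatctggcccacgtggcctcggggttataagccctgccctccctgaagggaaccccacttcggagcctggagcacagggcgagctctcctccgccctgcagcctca
LINC02970, chr20:62603392-62603691, minus strand: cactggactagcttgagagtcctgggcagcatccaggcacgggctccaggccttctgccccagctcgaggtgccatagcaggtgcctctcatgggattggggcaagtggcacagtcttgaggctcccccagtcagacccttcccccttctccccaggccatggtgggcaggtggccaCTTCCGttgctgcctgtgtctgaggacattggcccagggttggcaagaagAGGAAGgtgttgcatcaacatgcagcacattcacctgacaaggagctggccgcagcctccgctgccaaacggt
LOC101929566, chr16:2868155-2868454, minus strand: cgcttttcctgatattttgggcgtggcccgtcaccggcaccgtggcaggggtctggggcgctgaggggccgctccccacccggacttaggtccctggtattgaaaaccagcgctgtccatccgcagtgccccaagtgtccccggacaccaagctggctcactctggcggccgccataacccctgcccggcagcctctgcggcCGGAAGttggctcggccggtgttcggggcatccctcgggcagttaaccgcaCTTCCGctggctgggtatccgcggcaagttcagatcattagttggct

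Fold enrichment is the authors' value for the summit over its local background. The pileup and local background behind it, in fragments, were recovered from the deposited fold and p-value. Over the 211 members the median fold was 4.47 (quartiles 3.76 and 5.48, range 1.34 to 11.8), with a median pileup of 19 fragments on a median background of 3.26. The 1353 other peaks of these chromosomes had a median fold of 4.68. Members within 10 kb of a gene had a median of 4.98 (order-statistic 95% interval 4.59 to 5.66), where peaks at gene ends had 4.87 and those inside genes 4.77. Members beyond 10 kb had 4.22 (4.02 to 4.50). These intervals describe the peaks of this list and not replicate libraries, so the difference between near and far members has no test.

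**Figure D1:**
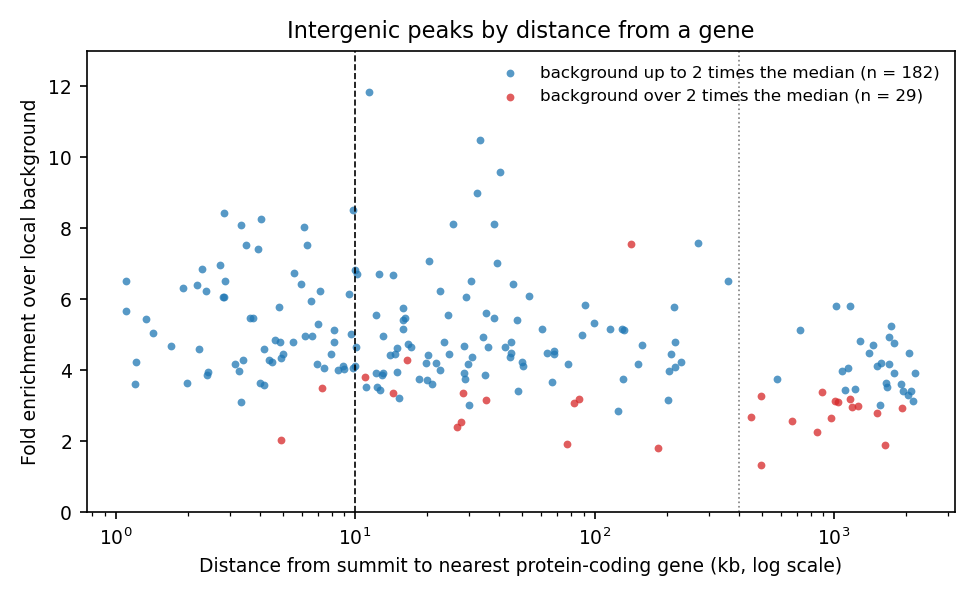
Each point is 1 of the 211 intergenic peaks, with the distance from its summit to the nearest protein-coding gene in kb (log scale) and its fold enrichment over local background. The dashed line is at 10 kb and the dotted line at 400 kb. Beyond 400 kb no point exceeds a fold of 5.82, and points on a raised background (red) mostly have a low fold.

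The far members split again at about 400 kb, a limit chosen after the positions were seen. The 103 members at 10 to 400 kb had a median fold of 4.50, while the 43 beyond 400 kb had 3.48 (3.20 to 3.98). Those 43 were a median of 995 kb from the nearest annotated gene of any kind, and 42 of them were over 10 kb from it. None of the 43 lay inside a noncoding gene or within 1 kb of an end of one. They lay on 15 chromosomes, with 6 on chromosome 5 and 5 on chromosome 22. A local background above 2 times the median of all peaks (over 7.04 fragments) was found at 15 of the 43 (34.9%, 22.4 to 49.8%). The same was true of 12 of the 103 at 10 to 400 kb (11.7%) and 2 of the 65 near members (3.08%). Among all members it was 29 of 211, or 13.7%, and over all 1564 peaks 13.3%. Peaks in the left-out multicopy intervals had a raised background at 90.1% of 131, and those at gene ends at 4.87%. Whether the 43 members beyond 400 kb, raised background or not, lie in repeated sequence was not tested, since no repeat annotation was used. The same holds for the other members on raised background.

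**Figure D2:**
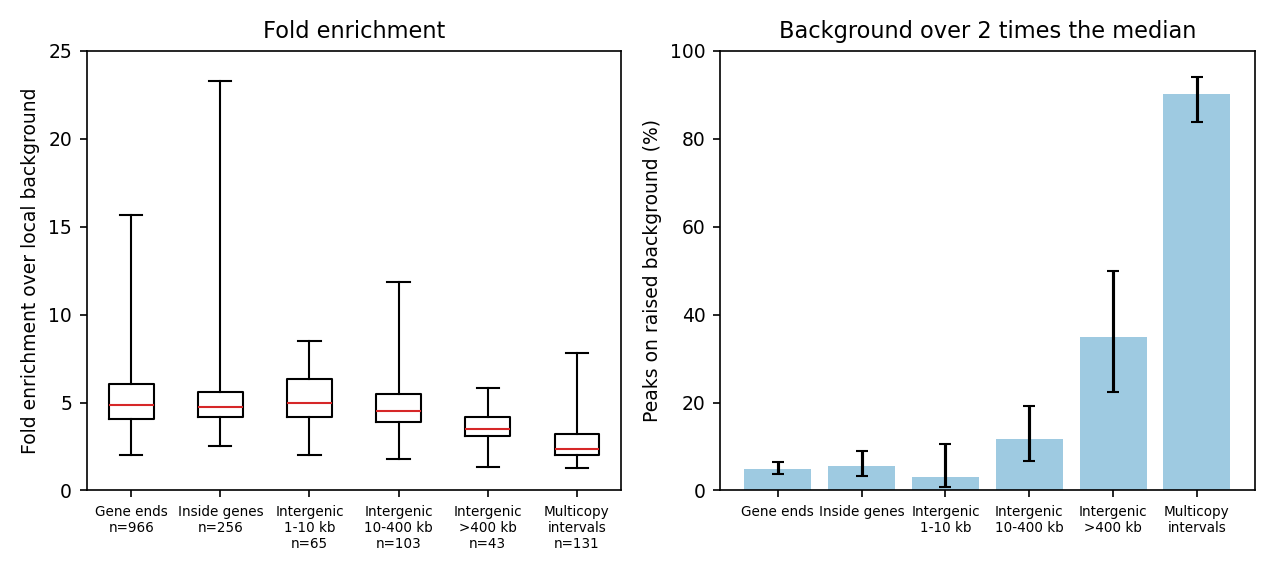
Left, fold enrichment over local background by class of peak, with the median (red), quartiles (box) and full range (whiskers); right, the percentage of each class on a background over 2 times the median, with 95% Wilson intervals (counting error only). The median is 4.98 within 10 kb, 4.50 at 10 to 400 kb and 4.87 at gene ends, while the 43 peaks beyond 400 kb sit lower (3.48) and more often on raised background (34.9%).

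Some peaks lay close to a limit of the rule. The closest members to a gene were at FCGRT (1106 bp, fold 5.66), HES1 (1109 bp, 6.51) and UBE2M (1202 bp, 3.62), and the last peaks outside genes that were too close to count were at FUCA1 (988 bp, 6.16) and BACC1 (956 bp, 5.14). Around 10 kb, the peak by FAM229A (9950 bp, fold 6.82) counted as near and 2 by PRSS22 (10002 and 10159 bp, 4.13 and 6.71) as far. Just outside the left-out intervals, 1 member on chromosome 10 lay 12629 bp away with a fold of 3.54. Another, on chromosome 5, lay 69321 bp away with a fold of 1.895 over 99.3 background fragments.

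The strongest intergenic peaks were next to BBC3, MYOM2, AKAIN1 and SPRY4. The top member (chromosome 19, 47243708 to 47244440) lay 11.4 kb from BBC3, the gene of the apoptosis-promoting protein PUMA, and 12.3 kb from CCDC9 on the other side. It had a pileup of 72 fragments on a background of 5.17, a fold of 11.8, and the highest significance of all members. Its summit was 50 bp upstream of the start of the lncRNA gene LOC124904731, and the nearest of 4 ETS cores in that window was 18 bp from the summit. MYOM2, a muscle M-band protein gene, was 33.1 kb from a peak of 10.5 fold inside the lncRNA gene LOC105377781. The peak 40.2 kb from AKAIN1 had a fold of 9.59 and covered the starts of LINC00526 and LINC00667, which are transcribed away from each other. A peak 32.2 kb from SPRY4, which encodes a feedback inhibitor of receptor tyrosine kinase signalling, had a fold of 8.998. It lay upstream of SPRY4 and within the long antisense gene SPRY4-AS1.

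Other far members of high fold also stood at lncRNA genes. The peak between C2orf42 and PCBP1 (8.13 fold) lay inside LINC01816, and the one 39.0 kb from SLCO4A1 (7.03) lay 83 bp upstream of the start of LINC02970. A peak of 6.71 fold near PRSS22 was 125 bp upstream of the start of LOC101929566. Peaks near ZNF124 (8.12 fold, 38.1 kb), KLF12 (7.59, 270 kb) and between PLXND1 and TMCC1 (7.07, 20.4 and 20.7 kb away) had no annotated noncoding gene within 1 kb of the summit. The peak nearest to OR4F15 (7.55 fold) lay in WASH3P, 1 of a family of WASH pseudogenes copied near chromosome ends, and its background of 7.74 fragments was raised.

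Near members with the highest folds included those by USP34, EGFL7, CLIC4 and RPN1. The USP34 peak (8.52 fold, 9826 bp away) lay 219 bp from an end of the transcribed pseudogene AHSA2P. EGFL7 encodes a secreted protein of blood vessel endothelium, and its nearer member, 2836 bp upstream of the gene, had 43 fragments at the summit, 8.42 fold over background. That summit lay inside the lncRNA gene LNCEGFL7OS. CLIC4, a chloride intracellular channel gene, had one of 8.26 at 4044 bp, in the interval shared with RUNX3. FOXJ2, a forkhead factor gene, and NFE2, which encodes a bZIP factor of erythroid cells and megakaryocytes, each had a member of 7.53 fold, at 6308 and 3518 bp. The peak by TSPOAP1 (7.41 fold) lay 213 bp upstream of the start of MIR142HG.

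By significance the 5 leading members were a mixed set. Besides BBC3, MYOM2 and the WASH3P peak they included 2 of low fold on very high background. The peak nearest to SHCBP1, 184 kb away on chromosome 16, had a pileup of 557 fragments on a background of 308 and a fold of 1.81. A peak 81.7 kb from PLS3 on chromosome X had 135 on 42.9, a fold of 3.09. Both rank high by significance and low by fold.

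Several intergenic peaks flanked genes for blood transcription factors. Between RPN1 and GATA2, 3 members stood within 19361 bp of each other, with no protein-coding gene between them and GATA2. GATA2 encodes a zinc finger factor of blood stem cells, and the interval between these genes is known for a distal GATA2 enhancer that chromosome 3 rearrangements of myeloid leukaemia move to MECOM. The 3 summits were 104, 111 and 123 kb upstream of the outermost start of GATA2. Their folds were 6.25, 5.75 and 8.10, on pileups of 22, 25 and 24 fragments and backgrounds of 2.68, 3.52 and 2.09. All 3 backgrounds were at or below the median of all peaks, 3.52 fragments. The peaks span 128596850 to 128597408, 128603951 to 128604363 and 128616330 to 128617125 on chromosome 3.

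SPI1, which encodes the ETS factor PU.1, had 1 member 16.1 kb away on its higher-coordinate side (chromosome 11, 47394496 to 47394853), with 25 fragments on a background of 2.87 and a fold of 6.71. Its summit lay inside the lncRNA gene SLC39A13-AS1. An enhancer of SPI1 at about such a distance is well known in myeloid cells. CEBPA, the gene of a granulocyte and monocyte factor, had 1 member 41.6 kb downstream of its start (chromosome 19, 33260574 to 33261037), with 25 fragments on 3.64 and a fold of 5.61. A downstream enhancer of CEBPA is likewise known in myeloid cells. Whether these peaks cover those elements was not tested, because no coordinates of enhancers were used here. At GATA2, SPI1 and CEBPA alike the nearest protein-coding gene was another one (RPN1, SLC39A13 and SLC7A10), so a count by nearest gene misses all 3.

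CBFA2T3, which encodes the corepressor ETO2 of erythroid and stem cells, had 3 intergenic members on its upstream side, 1913, 15279 and 16179 bp from the gene. Their folds were 6.33, 3.22 and 5.46. GFI1B, a repressor gene of erythroid cells and megakaryocytes, had 1 member of 4.07 fold 9774 bp downstream. HHEX, a homeobox gene of blood progenitors and endothelium, had 1 of 3.64 fold 4012 bp downstream. The nearest member to MYC was 218 kb away and inside PVT1, with a fold of 4.80, and its summit lay 35 bp from an end of MIR1205.

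For the other genes inspected whatever their values, the nearest member was farther away or had other protein-coding genes in between. For ERG itself the nearest was 1146 kb away and for RUNX1 2172 kb, in both cases the same peak near VPS26C. LYL1 had one at 61.6 kb, with 4 protein-coding genes in between, EPOR one at 256 kb with 10, and KLF1 one at 277 kb with 13. KIT (2940 kb), HDAC7 (6483 kb), LMO2 (12501 kb), MYB (14720 kb), TAL1 (14865 kb), GATA1 (44943 kb) and FLI1 (59235 kb) were farther still.

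**Figure D3:**
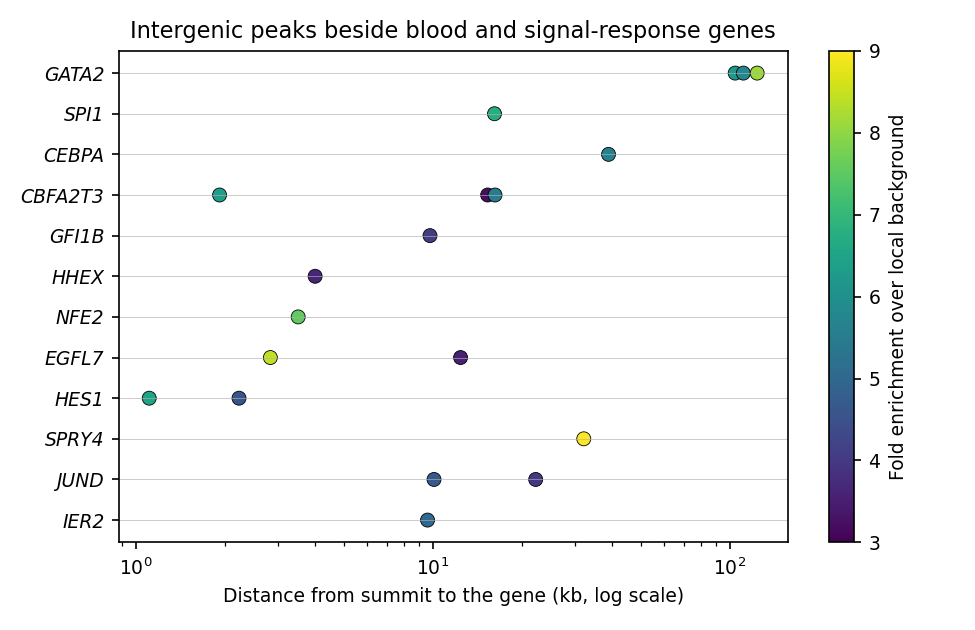
Intergenic peaks within 150 kb of 12 blood and signal-response genes (genes chosen after their values were seen), by distance from the summit to the gene in kb (log scale). Colour gives the fold enrichment over local background, from 3.22 at CBFA2T3 to 8.998 at SPRY4. GATA2 has the most distant set, 3 peaks at 104, 111 and 123 kb from the gene.

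Gene lists chosen with earlier results of these data known were then counted by nearest gene. Over all 19974 protein-coding genes, 170 were the nearest gene of an intergenic peak, which is 0.851%. Of the 289 distinct protein-coding genes on the lists 12 were (4.15%). These shares are descriptions without a test. Signal-response and immediate early genes had 5 of 39: SPRY4 (8.998), NR4A2 (5.43), IER2 (5.04), MYC (4.80) and JUND (4.65). NR4A2 is a nuclear receptor gene, IER2 an immediate early gene, and JUND encodes an AP-1 subunit. Stem and progenitor factors had 3 of 30 (MYC, GFI1B and HHEX) and erythroid genes 2 of 44 (NFE2 and CBFA2T3). ETS family genes had 0 of 28, and deacetylase and corepressor genes 0 of 38, a list without CBFA2T3 or GFI1B. At a share of 0.851% over all genes, a count of 0 in lists this short says little.

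Markers of other cell types were counted in the same way. Endothelial markers had 2 of 24, EGFL7 and SOX17 (3.77 fold, 131 kb away), which is 8.33%, and megakaryocyte markers 1 of 22, NFE2, or 4.55%, the same share as the erythroid list. Neutrophil and monocyte markers had 0 of 23 and lymphocyte markers 0 of 23, which also says little at a share of 0.851% over all genes. Counting the nearest gene on both sides of each peak brought the total over all lists from 12 to 22 genes and the share of all protein-coding genes from 0.851% to 1.6%, with GATA2, SPI1, CEBPA, BMI1, SOCS3, RCOR1, EGR3, ZFP36 and KLF10 among those added. Of 44 small structured and blood noncoding RNA genes only PVT1 held a member or had one within 1 kb.

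Ends of noncoding genes were counted around each summit. In 65 of 211 (30.8%, 24.97 to 37.3%) the summit was within 1 kb of an end of an annotated noncoding gene, where over all 1564 peaks it was 24.8%. A further 31 lay deeper inside one (14.7%), against 5.24% of all peaks, and 115 had none. Lying deeper inside one was found for 2.59% of peaks at gene ends, 5.86% inside genes and 8.40% in the multicopy intervals. The rule keeps members out of protein-coding genes, so these shares compare unlike positions. The 65 genes were 49 lncRNA genes, 15 pseudogenes, mostly transcribed ones, and 1 miRNA gene. The share with an end within 1 kb was 36.9% of near members and 39.8% of those at 10 to 400 kb. Besides the genes already named, DSCR9 (6.85 fold, by VPS26C) and LOC124903933 (6.82, by FAM229A) were among the 10 highest folds.

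Start positions of lncRNA genes were used for every chromosome of the rule except chromosome 8, which leaves 194 members. Of these, 37 had a lncRNA start within 1 kb (19.1%, 14.2 to 25.2%), at a median distance of 165 bp. Over all 1484 peaks of the same chromosomes the share was 16.2% and at gene ends 19.2%, near that of the members. A start within 300 bp was found for 27 members (13.9%) and for 9.57% of all peaks. The summit was upstream of the start in 13 and downstream in 24. Their median fold was 4.79, against 4.62 for the other 117 members up to 400 kb from a gene outside chromosome 8. Some of the 117 may stand at starts that the windows lack.

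**Figure D4:**
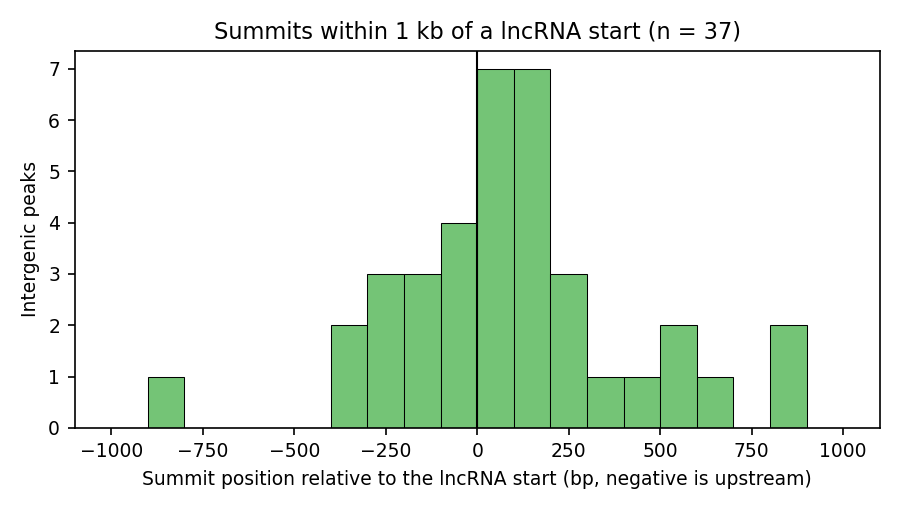
Summit position relative to the closest lncRNA start of the promoter windows, in bins of 100 bp. The 37 intergenic peaks within 1 kb of one are shown, and negative values are upstream. The bins from 0 to 100 bp and from 100 to 200 bp downstream of the start hold the most peaks, 7 each, and 27 of 37 summits lie within 300 bp.

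ETS cores were then counted in promoter windows under intergenic peaks. A window touched 29 members, and with 1 window taken per peak CGGAAG or AGGAAG, on either strand, was found in 25 of the 29 (86.2%, 69.4 to 94.5%). For 17 members, all at lncRNA starts, the window overlapped the peak by at least 150 bp, a limit chosen after seeing the data. There a core was found in 16 of the 17 (94.1%, 73.0 to 99.0%), and among the 12 with less overlap in 9. The windows of LOC102724624, in the 17, and GRAPL-AS1, in the 12, hold the same sequence with a shift and the same core. Both are counted, so the 29 are not all independent. Over all 34789 promoter windows the share was 46.9%, and over all lncRNA windows 42.0%. The 17 windows had a median GC content of 72% against 50% for lncRNA windows, and among lncRNA windows of the same GC range (59.7 to 78.7%) the share was 49.7%. The part of GC content in the share was otherwise not tested. Coding promoters overlapped by gene-end peaks reached 85.2% of 439.

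Most of this came from CGGAAG, which was in 14 of the 17 windows (82.4%), in 19.4% of all promoter windows and in 29.0% of those of the same GC range. AGGAAG was in 9 (52.9%), in 33.7% of all promoter windows and in 30.8% of those of the same GC range. The longer ETS site CCGGAAGT, which contains CGGAAG, was in 3 (17.6%, 6.19 to 41.0%). It was in 4.12% of all promoter windows and in 6.27% of those of the same GC range, which that interval includes. Coding windows in gene-end peaks held it in 31.7%. The exception without a core was LOC101927759, at a peak of 3.59 fold near NQO2. In 12 of the windows the summit itself lay inside, and 11 of those held a core, the nearest at a median of 48 bp from the summit (4 to 173 bp). Of all 17 windows 12 held 2 or more cores, and distances from other positions were not computed. Whether cores lie closer to summits than elsewhere was therefore not tested. In the windows printed above the nearest core was 4 bp away for MIR142HG, 13 bp for LINC02970, 80 bp for LOC101929566 and 149 bp for LINC00667.

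**Figure D5:**
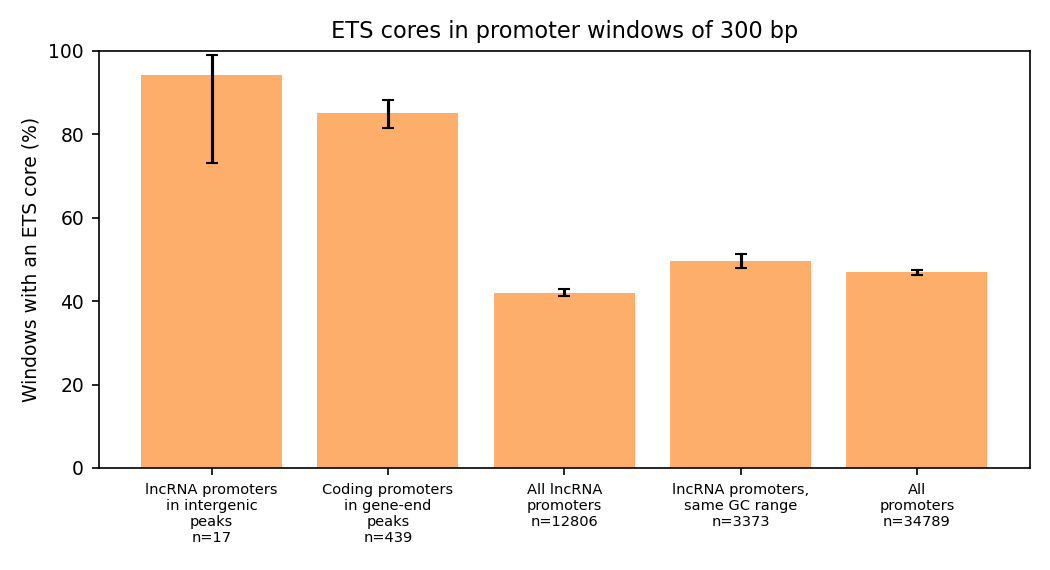
Percentage of 300 bp promoter windows with CGGAAG or AGGAAG on either strand, with 95% Wilson intervals (counting error only). The 17 lncRNA windows in intergenic peaks (94.1%) and the 439 coding windows in gene-end peaks (85.2%) stand above all lncRNA windows (42.0%), those of the same GC range (49.7%) and all windows (46.9%).

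Other motifs were searched in the same windows, on both strands. Shares in brackets are those over all 15319 promoter windows of the same GC range. The SP/KLF box GGGCGG was in 13 of 17 (75.7%). CCAAT, bound by NFY, was in 5 (29.9%) and the E-box CAGCTG in 4 (19.1%). CAGATG was in 2 (9.25%), the AP-1 site TGANTCA in 2 (3.53%) and the CTCF core CCANNAGGG in 1 (7.55%). The RUNX site TGTGGT (8.499%), the site AGATAA of GATA factors (2.68%), the YY1 site AAGATGG (5.77%) and the NRF1 site CGCATGCG (3.47%) were in 0 of the 17. A count of 0 in 17 says only that these letters are not in these windows, and its Wilson interval reaches 18.4%. No sequence was used for the peaks at GATA2, SPI1 or CEBPA.

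Hairpins of miRNAs lay within 5 kb of 4 of the members whose chromosome the miRNA table covered. At MIR142HG, the host gene of a miRNA abundant in blood cells, the MIR142 hairpin was 1415 bp from the summit, downstream of the start. Near ZSWIM4 a peak of 5.32 fold lay inside MIR23AHG, 2607 to 2907 bp from the hairpins of MIR23A, MIR27A and MIR24-2, a cluster transcribed as 1 unit. The main mature products are shown with the seed, bases 2 to 8, in capitals, since the seed decides which messages a miRNA pairs with. No seed was shared between them.
hsa-miR-142-5p: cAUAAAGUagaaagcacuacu
hsa-miR-142-3p: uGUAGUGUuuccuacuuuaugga
hsa-miR-23a-3p: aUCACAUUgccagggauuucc
hsa-miR-27a-3p: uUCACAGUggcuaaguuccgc
hsa-miR-24-3p: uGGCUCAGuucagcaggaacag

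Intergenic peaks also came in groups. Joining members within 50 kb gave 14 groups with 33 members, of which 10 were pairs. The largest had 4 members within 20743 bp on chromosome X, inside DANT1, a noncoding gene of the DXZ4 macrosatellite repeat. Their folds were 4.09 to 5.78 on backgrounds of 4.71 to 6.34 fragments, all above the median of 3.52. A second group on chromosome X, 3 members 77.1 to 86.2 kb from PLS3, had folds of 1.93 to 3.19 on backgrounds of 16.9 to 42.9. The groups of 3 by GATA2 and by CBFA2T3 had backgrounds of 2.09 to 3.52 and 2.66 to 4.60. HES1, a Notch target gene, had a member on each side, of 6.51 fold upstream and 4.59 fold downstream, and EGFL7 had a second one of 3.54 fold whose window at LOC102724193 held 2 ETS cores.

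By chromosome the members ranged from 3 to 21. Chromosome 19 had the most, 21 of its 168 peaks (12.5%), followed by chromosome 16 with 18 of 62 (29.0%). Chromosome X had the highest share, 10 of 21 (47.6%), of which 7 belonged to the groups near PLS3 and DANT1. Nearest genes whose strand was known had the member upstream and downstream about as often, 21 against 25 among near members and 50 against 55 among far ones.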

How the data were processed

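Bowtie2, MACS2, deepTools and the build hg38 appear in the list of tools, per the submitters' processing notes, while versions and settings were not given in the sources used here. Without a header line, the deposited peak list gives every peak a score, a fold enrichment (a ratio over local background), the −log10 of p and of q, and a summit offset in bp. Pileup (a whole number) and local background were recovered from fold and p as a Poisson tail, within 0.001 in log10 p for all 1645 peaks (300 of 300 when tested on simulated data with backgrounds up to 342 fragments).

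Genes and promoter windows came from RefSeq tables of GRCh38.p14, with 19974 protein-coding genes. Of the 34 genes of the EPO, JAK and STAT list 33 matched by symbol, and of the other lists all did. Named members followed a rule of highest fold (12 far, 8 near), significance, noncoding ends, lists, groups and fixed genes, and others were chosen after their values were seen. 1 member that the rule names, and the result of the EPO, JAK and STAT list, are not reported here. The members, lists and limits were chosen with earlier results of these data known. No genome sequence was used, so the planned ETS share around every summit was replaced by promoter windows. No test was run: intervals are 95% and cover counting error only. Software was matplotlib 3.10.9, SciPy 1.17.1, numpy 2.4.6, pandas 2.3.3 and Python 3.11.15.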

Additional observations from a re-analysis of the deposited data

How the results depend on the processing

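No paired analysis was possible because neither group has replicates (1 library per group, and a list that names no sample). The planned ETS share around every summit was not run, since no genome sequence was used. Among the upper 50% of peaks by significance, intergenic peaks were 11.0% of peaks with a median fold of 5.83. Far members were 76.4% of those over 3 kb from gene ends, 81.0% with a split at 5 kb and 55.0% at 20 kb, as the limits imply. Noncoding ends within 500 bp were found at 24.6%. Without the 43 members over 400 kb from a gene, a setting chosen after seeing the data, members were 10.7% of peaks, 61.3% of them far, 38.7% at noncoding ends and 8.33% on raised background. Taking the nearest gene on both sides, also chosen after seeing the data, gave 22 list genes. With CCGGAAGT alone, 17.6% of promoter windows held the site. The limit for raised background fell on a step, with 6 members on it, of which 3 were counted as raised by rounding. Pileups as low as 10 fragments limit what the list can show.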
